A study of Mus musculus with 4 samples.

Results

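The 36 genes described here encode condensin, cohesin and the SMC5/6 complex, which fold and hold chromosomes, and the lamins and inner nuclear membrane proteins that line the nucleus. They were chosen by symbol, with earlier results of these data known, and each matched 1 of the 23473 gene rows of a count table. All 36 had enough counts to be tested among 11024 tested genes. Total RNA was sequenced from cells labelled MIN6, a mouse insulinoma line that serves as a beta cell model. There were 2 libraries of stable overexpression of TLX, the product of the nuclear receptor gene Nr2e1. They were set against 2 libraries labelled wild type (control). Cells of both groups grew at 25 mM glucose with 15% fetal calf serum. Whether either cell population is 1 clone, and what vector the control cells carry, is not given in the labels. Nothing there says that the 2 libraries of a group came from separate cultures, so p-values measure only the spread between these libraries.

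Condensin and cohesin are rings built on a pair of SMC ATPases. Condensin compacts chromosomes for mitosis and exists in an I and a II form that share SMC2 and SMC4 and differ in their other subunits. Cohesin ties sister chromatids together after replication and, with CTCF, shapes chromatin loops in interphase. The lamina is a mesh of A-type and B-type lamins under the inner nuclear membrane. Proteins such as LBR, emerin and LAP2 tie chromatin to it, and SUN proteins connect it to the cytoskeleton. Many of the condensin and cohesion genes are transcribed mostly in dividing cells, whereas A-type lamin is abundant in differentiated and mesenchymal cells.

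Gene rows held 8490145 and 8136185 counts in TLX replicates 1 and 2, and 8435976 and 9788646 counts in control replicates 1 and 2. The members took 0.329% and 0.321% of these counts in TLX, against 0.294% and 0.291% in control. Nr2e1 was counted 338 and 281 times in the TLX libraries and 8 and 10 times in the control libraries. Of 14 beta cell markers, 10 were at 0 counts in every library (Nkx6-1, Neurod1, Slc2a2, Abcc8, Kcnj11, Iapp, Chga, Pcsk1, Pcsk2 and G6pc2), which goes against the label of a beta cell line. The other 4, Ins1, Ins2, Pdx1 and Mafa, were counted in every library at low levels and did not pass. Ins1 was at 11.3 and 8.83 CPM (counts scaled to library size) in TLX, against 9.34 and 8.66 CPM in control. Ins2 was at 3.70 and 6.31 CPM in TLX, against 5.39 and 4.03 CPM in control. Pdx1 was at 3.82 and 4.16 CPM in TLX, against 4.19 and 4.03 CPM in control. Mafa was at 1.97 and 2.40 CPM in TLX, against 1.68 and 1.61 CPM in control. The 14 markers summed to 20.8 and 21.7 CPM in TLX, against 20.6 and 18.3 CPM in control. Mesenchymal markers went both ways: of 11, 6 were tested, 2 were called higher and 2 lower. Col1a2, the highest of them, was at 3884 and 3834 CPM in TLX, against 3291 and 3084 CPM in control (log2 fold change 0.28, adjusted p = 0.0434). It was lost in 7 of 13 alternatives, with each library left out in turn among them (adjusted p of 0.202 and 0.17 without TLX replicates 1 and 2, and 0.0707 and 0.22 without control replicates 1 and 2; 0.00355 to 0.22 over the alternatives). Sparc rose by 0.87 on the log2 scale, whereas Fn1 was at 566 and 606 CPM in TLX, against 1019 and 970 CPM in control, and Pdgfrb had a log2 fold change of -0.73 (adjusted p of 2.21e-08, 4.34e-07 and 0.00647 for Sparc, Fn1 and Pdgfrb). Pdgfrb was lost without control replicate 1 (adjusted p = 0.071) and in DESeq2 (0.079), in a range of 3.3e-05 to 0.079 over the alternatives. Lum was at 0 counts in every library. The 11 markers summed to 6847 and 6740 CPM in TLX, against 6405 and 6046 CPM in control, with Col1a2 making up most of the sum. The 4 endothelial markers summed to 0 and 0.252 CPM in TLX, against 0.120 and 0.302 CPM in control. The 6 leukocyte markers summed to 59.8 and 62.8 CPM in TLX, against 76.9 and 85.6 CPM in control, and most of this was Cd68, which fell (43.3 and 45.4 CPM in TLX, against 59.2 and 68.2 CPM in control). Of 6 duct and acinar markers, Krt19, Epcam, Cpa1 and Amy2a5 were at 0 counts in every library, Cela1 did not pass, and Sox9 was called lower, at 10.3 and 10.6 CPM in TLX against 25.3 and 28.7 CPM in control. The 6 summed to 12.6 and 12.2 CPM in TLX, against 27.1 and 29.6 CPM in control. The part of these other cell type markers in the results below was not tested.

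With TLX, 12 of the 36 genes rose, 1 fell and 23 did not pass the test (edgeR quasi-likelihood test, Benjamini-Hochberg adjusted p under 0.05 over all tested genes). Those that rose were Smc2, Ncapd2, Ncaph and Ncapd3 of condensin, Smc1a, Smc3, Rad21, Pds5b, Esco2 and Sgol2 of cohesin, and Lmnb1 and Tmpo of the lamina. The gene that fell was Sun2. The rises were small, from 1.19-fold to 1.80-fold with a median of 1.37-fold. Members were thus called in 36.1% of cases, against 16.8% of all tested genes, of which 7.79% were higher and 9.04% lower with TLX. The median log2 fold change was 0.16 over the members and 0.00057 over all tested genes, and 28 members had a positive value, as did 50.1% of all tested genes. In 22 members both TLX libraries lay above both control libraries, and in 3 they lay below, against 28.5% and 28.6% of all tested genes. These shares describe the members, and no test of the list was made. Since the members were chosen with earlier results of these data known, the shares are no independent evidence about them.

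The calls of Ncapd2, Ncaph, Rad21, Sgol2, Lmnb1 and Tmpo, 6 of the 13, held under each of the 13 alternatives. For Ncaph, Rad21 and Sgol2 the largest adjusted p over the alternatives lay close under 0.05. These genes are therefore not sharply set apart from called members that were lost. Without TLX replicate 2 the number of members that rose was 6, and DESeq2's Wald test called 7 higher and 0 lower (13 and 1 at an unadjusted p under 0.05).

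**Figure D1:**
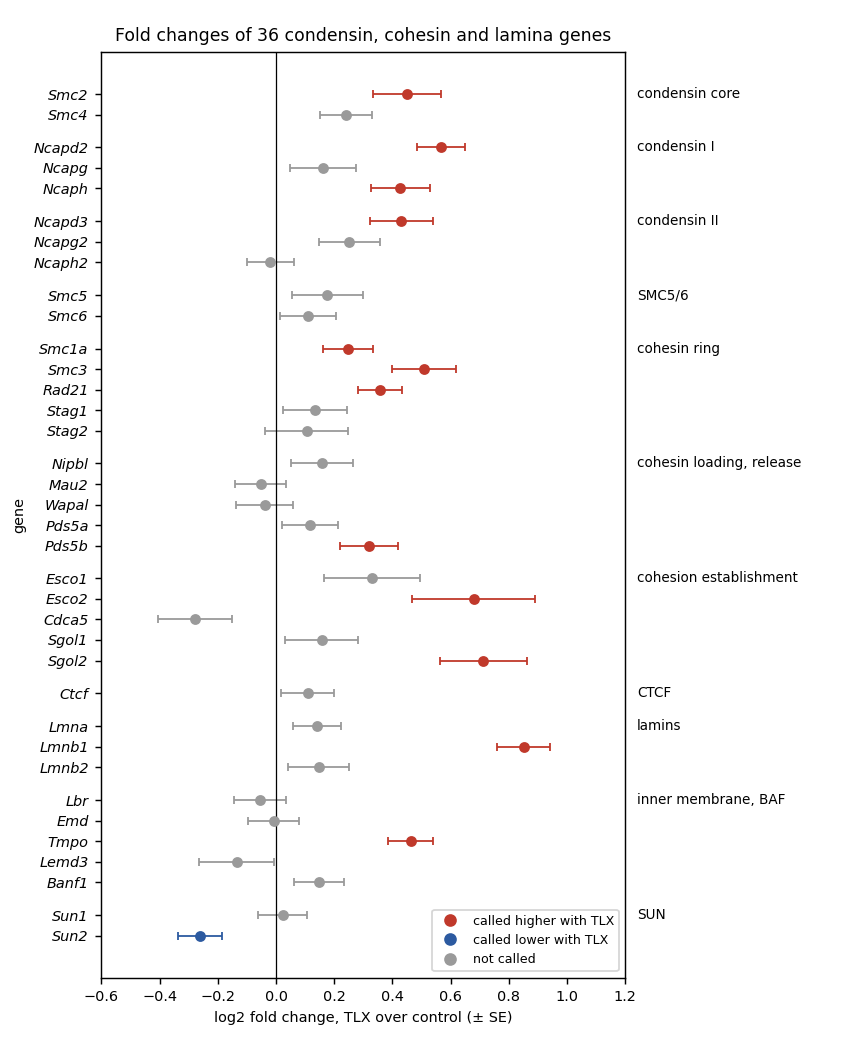
Log2 fold change of TLX over control for each of the 36 genes, grouped by complex down the page. Points are edgeR estimates, bars are ± 1 SE, and colour marks genes called higher, called lower or not called. Most points lie right of 0, Lmnb1 lies farthest right at 0.85, and Sun2 is the one called gene on the left at -0.26.

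In condensin, 4 of 8 subunits rose with TLX and 0 fell, and 7 of 8 had a positive log2 fold change. Over all tested genes 7.79% were called higher and 50.1% had a positive value. With p unadjusted, edgeR had 6 of the 8 higher and 0 lower, and DESeq2 5 higher and 0 lower. At an unadjusted p under 0.05 edgeR had 3321 of all 11024 tested genes in either direction. Counts with p unadjusted, here and below, are to be read beside that share. With adjusted p, DESeq2 called 2 higher and 0 lower. Their median log2 fold change was 0.34. Ncapd2, the HEAT-repeat subunit of condensin I, had the largest rise. It stood at 114 and 121 CPM in TLX replicates 1 and 2, against 82.3 and 76.7 CPM in control replicates 1 and 2. Both TLX libraries lay well above both control libraries. Its annotated exons share 237 bases with the small nucleolar RNA gene Scarna10 and 235 bases with Gm28967. Both lie on the same strand, so its level is uncertain there. It rose by 0.57 on the log2 scale (SE 0.08, 1.48-fold, adjusted p = 3.77e-05). Ncaph, the kleisin that closes the condensin I ring, was at 51.0 and 49.1 CPM in TLX and 40.5 and 34.2 CPM in control (log2 fold change 0.43, SE 0.10, adjusted p = 0.0043). The groups did not overlap, although the control libraries were farther apart than the TLX libraries. Ncapg, the other HEAT-repeat subunit of condensin I, was at 28.2 and 33.3 CPM in TLX and 27.3 and 27.6 CPM in control and did not pass (log2 fold change 0.16, adjusted p = 0.364). TLX replicate 1 was close to both control libraries for this gene.

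Among the subunits found in condensin II alone, Ncapd3 rose and the other 2 did not pass. Ncapd3 was at 35.3 and 36.3 CPM in TLX, against 25.2 and 27.8 CPM in control (log2 fold change 0.43, SE 0.11, adjusted p = 0.00669). It did not pass without TLX replicate 2 (adjusted p = 0.0509) or in DESeq2 (0.0801), with a range of 0.00109 to 0.0801 over the alternatives. Ncapg2 was at 35.6 and 34.7 CPM in TLX and 30.5 and 28.6 CPM in control, a log2 fold change of 0.25 (adjusted p = 0.102). Ncaph2, the condensin II kleisin, was at 319 and 309 CPM in TLX and 342 and 295 CPM in control. Its groups overlapped and its log2 fold change was -0.02 (adjusted p = 0.902). In the GENCODE annotation of GRCm38, exons of Ncaph2 share 829 bases with Sco2 and 535 bases with Tymp on the opposite strand. Both neighbours were lower with TLX, with log2 fold changes of -0.40 for Sco2 and -0.47 for Tymp (adjusted p of 0.00171 and 0.00037). The use of strand in counting is not given. Whether reads of the 3 genes were told apart where they overlap is thus unknown, and the level of Ncaph2 is uncertain.

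Of the shared ATPases, Smc2 rose and Smc4 did not pass. Smc2 was at 29.0 and 33.9 CPM in TLX, against 21.9 and 24.0 CPM in control (log2 fold change 0.45, SE 0.12, adjusted p = 0.00926). Without TLX replicate 2 it did not pass (adjusted p = 0.156), nor in DESeq2 (0.0961), within a range of 0.00196 to 0.156 over the alternatives. Its partner Smc4 was at 81.1 and 92.5 CPM in TLX and 70.8 and 75.9 CPM in control and missed the threshold (log2 fold change 0.24, SE 0.09, adjusted p = 0.0688). It passed without control replicate 2 (adjusted p = 0.0201; 0.0201 to 0.578 over the alternatives).

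Promoters of condensin genes are shown to set a pair of genes that rose beside a gene of the same complex that did not pass. Each runs from 250 bases before to 50 bases after the annotated start, 5′ to 3′ on the gene's strand, from RefSeq on GRCm38.p6, whereas the counts were made on mm9. Capitals mark, on either strand, the cell cycle homology region (CHR, TTTGAA or TTTAAA), the CCAAT box (CCAAT) and E2F site letters (TTTGGCGC, TTTCGCGC, TTTCCCGC or TTTGCCGC). The CHR and CCAAT box are known from promoters of G2/M genes, and E2F sites from those of S phase genes.
Ncapd2, chr6:125191537-125191836, minus strand: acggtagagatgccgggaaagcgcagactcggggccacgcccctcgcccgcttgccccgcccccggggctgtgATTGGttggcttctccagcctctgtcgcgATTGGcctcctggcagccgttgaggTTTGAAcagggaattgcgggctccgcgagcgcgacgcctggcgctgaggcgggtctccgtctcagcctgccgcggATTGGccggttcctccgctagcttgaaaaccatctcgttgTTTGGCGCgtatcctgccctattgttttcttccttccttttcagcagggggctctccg
Smc2, chr4:52438971-52439270, plus strand: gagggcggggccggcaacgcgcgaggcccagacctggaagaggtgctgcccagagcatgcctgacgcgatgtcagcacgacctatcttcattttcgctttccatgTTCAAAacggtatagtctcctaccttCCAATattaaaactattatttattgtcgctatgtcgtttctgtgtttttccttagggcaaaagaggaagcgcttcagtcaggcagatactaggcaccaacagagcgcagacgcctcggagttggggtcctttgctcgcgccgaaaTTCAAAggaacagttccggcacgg
Ncapg, chr5:45669675-45669974, plus strand: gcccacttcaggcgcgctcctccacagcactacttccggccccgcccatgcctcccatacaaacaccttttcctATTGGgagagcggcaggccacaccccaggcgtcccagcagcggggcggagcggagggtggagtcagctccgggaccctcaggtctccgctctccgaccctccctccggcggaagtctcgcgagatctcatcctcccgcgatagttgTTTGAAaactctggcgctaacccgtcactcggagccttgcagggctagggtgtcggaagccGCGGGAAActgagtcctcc
The Ncapd2 window held 1 CHR match, 3 CCAAT matches, the nearest beginning 48 bases before the start, and the E2F letters TTTGGCGC beginning 8 bases before it. The Smc2 window held 2 CHR matches, 1 CCAAT match and no E2F match. Ncapg, which did not pass, held 1 match of each kind, with its CHR match beginning 30 bases before the start. No match in these windows overlapped a match of another motif. All 3 motifs were found both in Ncapd2, which rose, and in Ncapg, which did not pass. The part of these motifs in the changes was not tested. Ncaph and Ncapd3, which also rose, are not shown. The Ncaph window held 0 matches of the 3 motifs, as did promoter 1 of Ncapd3. Promoter 2 of Ncapd3 held 2 CHR matches and 0 of the others.

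RefSeq promoters of this kind were found for 29 of the 36 members, of which 3 were matched by an older symbol. Those without an entry were Smc4, Rad21, Stag2, Nipbl, Esco1, Esco2 and Lmnb1. A CHR match stood in 5 of 9 members that rose and in 7 of 20 other members, counting any annotated promoter of a gene, against 27.6% of 32851 promoters of the same length. CCAAT matches stood in 6 of 9 and 11 of 20 (37.4% of all promoters), and E2F matches in 3 of 9 and 5 of 20 (2.26%). The core of the site bound by TLX, AAGTCA, stood in 1 of 9 and 3 of 20 (15.1%). These are letter matches only, and genes with several promoters had more chances to hold one.

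**Figure D2:**
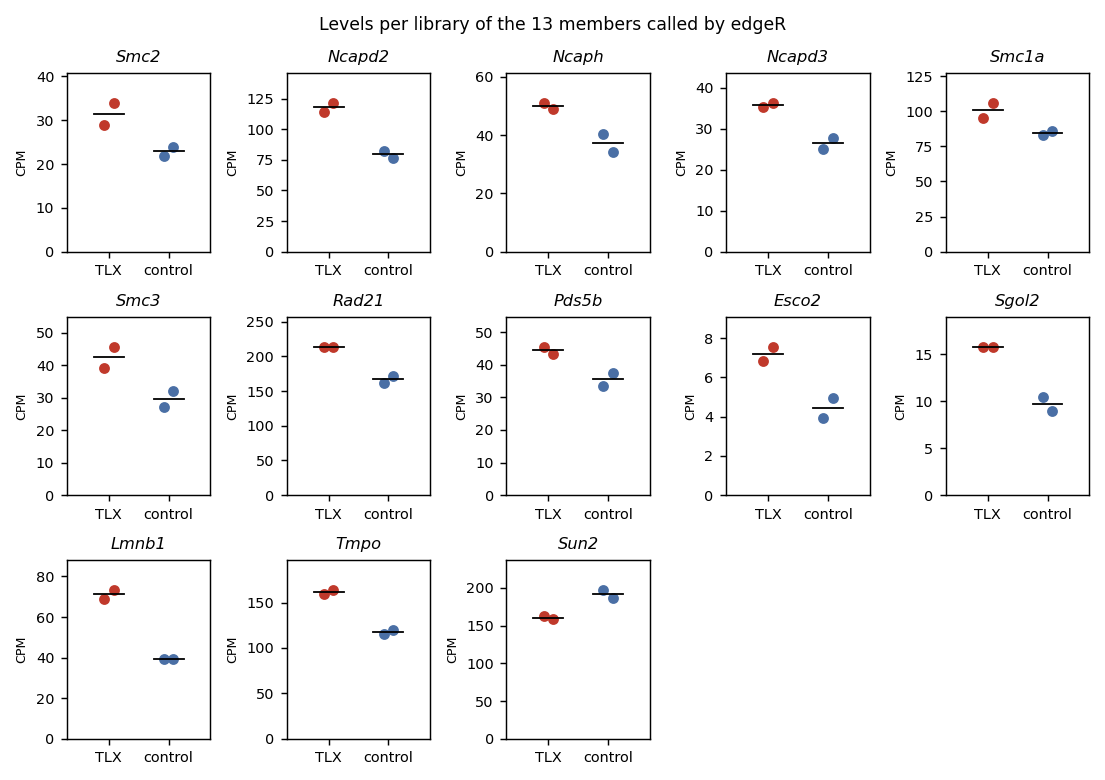
Level in CPM, on axes that start at 0, of the 13 called genes in each library, TLX left and control right. Each point is 1 library and each line the mean of 2. In every panel the groups are apart, with Lmnb1 at 69.0 and 73.3 CPM in TLX against 39.4 and 39.5 CPM in control.

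Cohesin genes were higher with TLX in 6 of 15 cases, with 9 that did not pass, against 7.79% of all tested genes called higher. The number lower was 0 in edgeR (1 lower when p was left unadjusted), and DESeq2 called 3 higher and 0 lower. The median log2 fold change was 0.16. The 3 ring subunits Smc1a, Smc3 and Rad21 rose, and the 2 STAG subunits did not pass. Rad21, the kleisin cleaved at anaphase, was at 214 and 214 CPM in TLX, against 162 and 172 CPM in control. The TLX libraries nearly coincided and stood above both control libraries. It rose by 0.36 on the log2 scale (SE 0.08, adjusted p = 0.00179). Smc3, the ATPase acetylated when cohesion is set up, was at 39.3 and 45.8 CPM in TLX, against 27.3 and 32.1 CPM in control (log2 fold change 0.51, SE 0.11, adjusted p = 0.00223). Without TLX replicate 2 it missed the threshold (adjusted p = 0.0533; 5.8e-06 to 0.0533 over the alternatives). Smc1a, the other ATPase, was at 95.2 and 106 CPM in TLX and 83.0 and 86.2 CPM in control, a rise of 0.25 on the log2 scale (SE 0.08). Its adjusted p of 0.0479 was the closest of all called members to the threshold. It was lost in 8 of 13 alternatives, among which adjusted p was 0.0965 and 0.489 without TLX replicates 1 and 2 and 0.0771 when control replicate 1 was left out (0.0226 to 0.489 over the alternatives).

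Stag1 and Stag2, the alternative subunits by which cohesin docks on chromatin and CTCF, did not pass. Stag1 was at 29.7 and 34.3 CPM in TLX and 29.7 and 28.6 CPM in control (log2 fold change 0.13, adjusted p = 0.449). Stag2 was at 17.6 and 25.1 CPM in TLX and 19.2 and 20.2 CPM in control, so that the control libraries lay between the TLX libraries (log2 fold change 0.11, adjusted p = 0.675). Without TLX replicate 2 the value of Stag2 was -0.17.

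Of 5 loading and release factors, 1 rose with TLX, against 7.79% of all tested genes. Nipbl and Mau2 form the cohesin loader, Wapal opens the ring to release it, and the PDS5 proteins act in both release and cohesion. Nipbl was at 60.6 and 80.4 CPM in TLX and 61.0 and 65.0 CPM in control, with TLX replicate 2 above the other libraries (log2 fold change 0.16, adjusted p = 0.336). Mau2 was at 57.9 and 61.7 CPM in TLX and 62.8 and 61.2 CPM in control, and Wapal at 50.4 and 58.8 CPM in TLX and 52.9 and 58.9 CPM in control. Their log2 fold changes were -0.05 and -0.04 (adjusted p of 0.746 and 0.836). Pds5a was at 69.2 and 82.0 CPM in TLX and 64.8 and 74.1 CPM in control (log2 fold change 0.12, adjusted p = 0.452). Pds5b rose, at 45.6 and 43.3 CPM in TLX against 33.4 and 37.6 CPM in control (log2 fold change 0.32, SE 0.10, adjusted p = 0.0276). Its adjusted p was 0.225 and 0.0832 without TLX replicates 1 and 2, 0.108 with control replicate 1 left out and 0.203 in DESeq2 (0.00451 to 0.225 over the alternatives).

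Among 5 factors that establish or protect cohesion, 2 rose, against 7.79% of all tested genes. These 2 had the largest fold changes of all cohesin genes. Sgol2, which shields centromeric cohesin, was at 15.8 and 15.8 CPM in TLX, against 10.4 and 8.96 CPM in control. It rose by 0.71 on the log2 scale (SE 0.15, 1.64-fold, adjusted p = 0.00176). Its annotated exons share 2455 bases with Kctd18 on the opposite strand. That neighbour was at 6.45 CPM in TLX and 7.74 CPM in control and did not pass (log2 fold change -0.24, adjusted p = 0.506). RefSeq also lists a paralogue, Sgo2b, and how reads that match both genes were counted is not given. Exons of Ncapg, Ctcf, Lbr and Banf1 also share 944, 114, 440 and 428 bases with a protein-coding gene on the opposite strand. With non-coding or unclassified transcripts on that strand, exons of the called members Tmpo and Sun2 share 244 and 147 bases, those of Sun1, Ctcf and Stag2 share 302, 370 and 28, and those of Pds5a share 255 and 119 with a pair of them. On the same strand, exons of Emd share 343 bases with a pseudogene, and those of Lbr share 69 bases with an rRNA gene. Reads of same-strand pairs, Ncapd2 and its neighbours among them, cannot be told apart by strand where they overlap. Reads of opposite-strand pairs could be told apart if strand was used in counting, which is not given. The levels of all these members are therefore uncertain. Sgol1, the shugoshin of somatic mitosis, was at 21.3 and 22.7 CPM in TLX and 18.1 and 21.1 CPM in control (log2 fold change 0.16, adjusted p = 0.434).

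Esco2, the SMC3 acetyltransferase of S phase, had the lowest level per length of all members, and was at 6.82 and 7.57 CPM in TLX, against 3.95 and 4.93 CPM in control. These levels rest on 59 and 60 counts in TLX and 33 and 49 counts in control. It rose by 0.68 on the log2 scale (SE 0.21, 1.60-fold, adjusted p = 0.0282). Without TLX replicates 1 and 2 its adjusted p was 0.0527 and 0.152, without control replicate 1 it was 0.13, and in DESeq2 0.263 (0.0117 to 0.263 over the alternatives). Esco1, the related enzyme that also acts in interphase, was at 12.3 and 14.0 CPM in TLX and 8.74 and 11.9 CPM in control (log2 fold change 0.33, adjusted p = 0.184), and passed without control replicate 2 (0.0282; 0.0282 to 0.659 over the alternatives). Cdca5, which encodes sororin, the factor that counters WAPL after replication, lay on the other side of 0. It was at 25.7 and 20.7 CPM in TLX and 31.0 and 25.7 CPM in control, with a log2 fold change of -0.28 (SE 0.13, adjusted p = 0.142). Cdca5 passed without control replicate 2 (adjusted p = 0.0146; 0.0146 to 0.674 over the alternatives).

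Of the pair of SMC5/6 genes and Ctcf, 0 passed in edgeR or DESeq2, also with p unadjusted. Smc5 and Smc6 encode the core of a further SMC complex, which acts in DNA repair. Smc5 was at 25.3 and 29.5 CPM in TLX and 21.9 and 26.3 CPM in control, and Smc6 at 43.7 and 45.5 CPM in TLX and 39.1 and 43.5 CPM in control. Their log2 fold changes were 0.18 and 0.11 (adjusted p of 0.358 and 0.493). Ctcf, the zinc finger protein at which cohesin loops stop, was at 50.8 and 52.0 CPM in TLX and 46.8 and 48.3 CPM in control (log2 fold change 0.11, adjusted p = 0.457).

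In the nuclear lamina, the genes of a B-type lamin and a LEM protein rose, that of a SUN protein fell, and 7 of 10 genes did not pass. Of all tested genes 16.8% were called in either direction. Lmnb1, which encodes lamin B1, a lamin anchored permanently in the membrane, had the largest change of all members. It was at 69.0 and 73.3 CPM in TLX, against 39.4 and 39.5 CPM in control. The control libraries nearly coincided and both TLX libraries stood far above them. It rose by 0.85 on the log2 scale (SE 0.09, 1.80-fold, adjusted p = 4.49e-07), and its adjusted p stayed at or below 9.54e-07 over the alternatives. Lmnb2, the other B-type lamin gene, was at 35.7 and 41.5 CPM in TLX and 36.1 and 33.7 CPM in control, with overlapping groups (log2 fold change 0.15, adjusted p = 0.374). Lmna, which encodes lamins A and C, was at 859 and 820 CPM in TLX and 807 and 716 CPM in control. The groups did not overlap but lay close, and the log2 fold change of 0.14 did not pass (SE 0.08, adjusted p = 0.263).

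Tmpo, which encodes the LAP2 family of lamin- and BAF-binding proteins, was the other lamina gene that rose. It was at 160 and 164 CPM in TLX, against 115 and 120 CPM in control (log2 fold change 0.46, SE 0.08, adjusted p = 0.000165). Banf1, which encodes BAF, the small DNA-binding protein that bridges LEM proteins and chromatin, was at 134 and 128 CPM in TLX and 128 and 109 CPM in control (log2 fold change 0.15, adjusted p = 0.256). It passed without control replicate 1 (adjusted p = 0.0194; 0.0194 to 0.829 over the alternatives). Lbr, the lamin B receptor and also a sterol reductase, was at 72.6 and 76.8 CPM in TLX and 72.0 and 82.9 CPM in control. Emd, which encodes emerin, was at 73.0 and 66.5 CPM in TLX and 68.4 and 71.9 CPM in control. Lemd3, which encodes MAN1, an inhibitor of SMAD signalling, was at 16.3 and 18.4 CPM in TLX and 18.7 and 19.3 CPM in control. The log2 fold changes of Lbr, Emd and Lemd3 were -0.05, -0.01 and -0.13 (adjusted p of 0.736, 0.96 and 0.529).

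Sun2 and Sun1 encode the inner membrane side of the bridge between lamina and cytoskeleton. Sun2 was at 162 and 159 CPM in TLX, against 197 and 187 CPM in control. Both TLX libraries lay below both control libraries, and the log2 fold change was -0.26 (SE 0.08, adjusted p = 0.0196). Without TLX replicate 1 or 2 it did not pass (adjusted p of 0.176 and 0.257), nor in DESeq2 (0.0647), within a range of 0.00219 to 0.257 over the alternatives. Sun1 was at 75.5 and 73.9 CPM in TLX and 71.5 and 75.5 CPM in control (log2 fold change 0.02, adjusted p = 0.896). The Sun2 promoter is shown because Sun2 was the one member that fell, with the same capitals as above.
Sun2, chr15:79742487-79742786, minus strand: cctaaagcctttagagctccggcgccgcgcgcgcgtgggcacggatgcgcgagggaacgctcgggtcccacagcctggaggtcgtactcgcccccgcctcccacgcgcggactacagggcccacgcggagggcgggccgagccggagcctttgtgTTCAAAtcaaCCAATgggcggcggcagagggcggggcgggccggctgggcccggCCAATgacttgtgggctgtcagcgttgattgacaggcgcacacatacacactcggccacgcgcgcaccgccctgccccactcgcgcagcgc
It held 1 CHR match, beginning 95 bases before the start, 2 CCAAT matches and no E2F match. The TLX core letters, read as TGACTT on the opposite strand, began 37 bases before the start and overlapped the nearer CCAAT match. CHR and CCAAT letters were present in this gene, which fell, and in genes that rose. They also stood in 27.6% and 37.4% of all promoters of the same length. The part of these letters in the changes was not tested.

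Levels of different genes were set side by side per feature length, as counts per kilobase scaled to all gene row counts (RPKM). The members spanned a 119-fold range of mean RPKM over the 4 libraries, with a median of 11.7. Lmna was highest, at 249 ± 16 RPKM in TLX and 227 ± 15 RPKM in control (SD, n = 2), followed by Banf1 at 159 ± 10 RPKM in TLX and 145 ± 13 RPKM in control. Esco2 was lowest, at 2.47 ± 0.10 RPKM in TLX and 1.54 ± 0.27 RPKM in control. Within the cohesin ring the order was Rad21 (59.1 ± 1.9 RPKM in TLX and 46.4 ± 2.8 RPKM in control), Smc1a (25.2 ± 1.1 and 21.4 ± 0.94), Smc3 (8.73 ± 0.67 and 6.14 ± 0.81), Stag1 (5.30 ± 0.37 and 4.86 ± 0.045) and Stag2 (3.48 ± 0.76 and 3.24 ± 0.18), each given for TLX and then for control. The first 3 of these were apart by more than their spread in both groups, and Stag1 exceeded Stag2 1.71 and 1.38 times in the TLX libraries and 1.57 and 1.43 times in the control libraries.

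**Figure D3:**
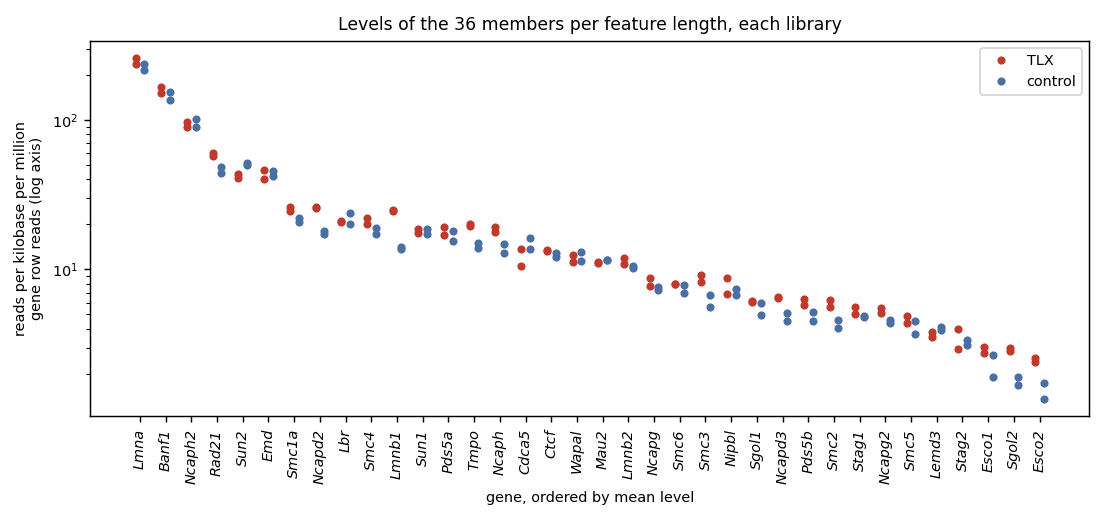
RPKM, on a log axis, of each of the 36 genes in each library, with genes ordered by their mean over the 4 libraries. Each point is 1 library, TLX left of control for each gene. Lmna is highest at a mean of 238 RPKM over the 4 libraries, and Esco2 is lowest at means of 2.47 RPKM in TLX and 1.54 RPKM in control.

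Ratios of the RNA levels of partners or paralogues within a library were compared between the groups. Of 13 ratios, 5 were higher in both TLX libraries than in both control libraries, 5 were lower and 3 overlapped. Many of the ratios hold a member called above, so they are not independent of those calls. Lmna/Lmnb1 and Lmnb1/Lmnb2 share Lmnb1 and are not independent of each other. The groups did not overlap in 57.1% of single tested genes, in CPM. That is not a like measure, and no such share was computed for ratios of other gene pairs. No p is given for them, since 2 libraries against 2 cannot give an exact permutation p below 0.333. Lamin A/C over lamin B1 (Lmna/Lmnb1) shifted by -0.71 on the log2 scale, with ratios of RPKM of 10.5 and 9.46 in TLX against 17.3 and 15.3 in control. Lamin B1 over lamin B2 (Lmnb1/Lmnb2) was 2.29 and 2.09 in TLX, against 1.30 and 1.39 in control. Lmna remained the most abundant lamin row in all 4 libraries. The shugoshin ratio Sgol1/Sgol2 was 2.02 and 2.16 in TLX, against 2.60 and 3.54 in control. Esco1/Esco2 was 1.15 and 1.18 in TLX, against 1.41 and 1.54 in control.

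The ratios of the ATPase pairs did not overlap between groups. Smc2/Smc4 was 0.275 and 0.282 in TLX, against 0.238 and 0.242 in control, and Smc1a/Smc3 was 2.96 and 2.82 in TLX, against 3.71 and 3.28 in control. Sun1/Sun2 was 0.429 and 0.430 in TLX, against 0.334 and 0.372 in control. The condensin I to II ratios Ncapd2/Ncapd3 and Ncapg/Ncapg2 overlapped between groups, at 3.94 and 4.07 in TLX against 3.99 and 3.37 in control for the first, and 1.41 and 1.71 in TLX against 1.60 and 1.72 in control for the second. Ncaph/Ncaph2 was 0.198 and 0.197 in TLX, against 0.147 and 0.144 in control, with the overlap of Ncaph2 with Sco2 and Tymp in its denominator. Of the cohesin regulators, Pds5a/Pds5b was 2.68 and 3.34 in TLX, against 3.42 and 3.48 in control, and the loader over the release factor, Nipbl/Wapal, was 0.615 and 0.699 in TLX, against 0.589 and 0.564 in control. The groups were close in both of these ratios. Differences between the changes of 2 genes were not tested otherwise.

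**Figure D4:**
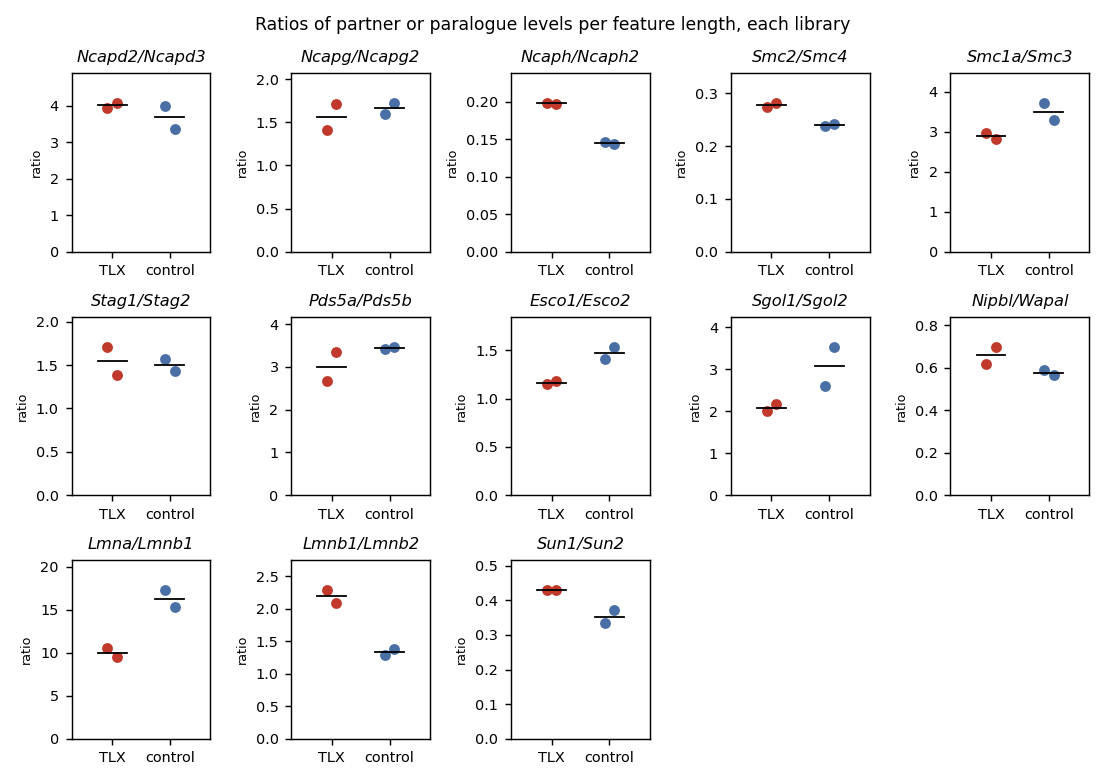
Ratio of RPKM within each library for 13 pairs of members, on axes that start at 0, TLX left and control right. Each point is 1 library and each line the mean of 2. Lmna/Lmnb1 averaged 9.99 in TLX and 16.3 in control, whereas Stag1/Stag2 overlapped between groups.

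Other genes of the same pathways were listed by known role, also with earlier results of these data known. Of these 48 genes, 40 were tested, 11 rose and 0 fell, while edgeR had 1 lower with p unadjusted, limma-voom 0 lower, and DESeq2 6 higher and 0 lower. Their median log2 fold change was 0.13. They were called in 27.5% of cases, against 16.8% of all tested genes. Top2a, the topoisomerase that works with condensin, was at 98.1 and 110 CPM in TLX, against 65.8 and 75.0 CPM in control (log2 fold change 0.56, adjusted p = 0.000116). The chromokinesin genes Kif22 and Kif4 had log2 fold changes of 0.46 and 0.36 (adjusted p of 0.000584 and 0.0355), and the chromatin protein gene Hmgb1 had 0.24 (adjusted p = 0.0283). Espl1, which encodes separase, the protease that cuts RAD21, rose by 0.39 and its inhibitor Pttg1, or securin, by 0.29 (adjusted p of 0.00231 and 0.0335). Of these 6 genes, Top2a, Kif22 and Espl1 passed under every alternative. Kif4 did not pass without TLX replicate 2 or in DESeq2 (adjusted p of 0.576 and 0.199; 0.00358 to 0.576 over the alternatives). Hmgb1 missed the threshold without TLX replicates 1 and 2 and control replicate 1 (adjusted p of 0.267, 0.224 and 0.0719; 0.00435 to 0.267 over the alternatives, and lost in 3 others), and Pttg1 without TLX replicates 1 and 2 and control replicate 2 (0.189, 0.185 and 0.063; 0.0327 to 0.230 over the alternatives, and lost in 3 others).

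Around the lamina, Tor1aip1 and Tor1aip2, which encode the torsin activators LAP1 and LULL1, rose by 0.48 and 0.35 on the log2 scale (adjusted p of 0.000299 and 0.00262). The inner membrane protein gene Nrm (nurim) rose by 0.73 (adjusted p = 0.012), Syne2, a nesprin that binds SUN proteins, by 0.29 (adjusted p = 0.0261), and Cbx3, a heterochromatin protein that binds LBR, by 0.50 (adjusted p = 0.000401). Without TLX replicate 2, Tor1aip2 had an adjusted p of 0.0719 (1.88e-05 to 0.0719 over the alternatives) and Nrm of 0.0719, and Nrm had 0.07 without control replicate 1 and 0.155 in DESeq2 (0.00179 to 0.155 over the alternatives). Syne2 had 0.0742, 0.272 and 0.15 without TLX replicates 1 and 2 and control replicate 1, and 0.118 in DESeq2 (0.000203 to 0.272 over the alternatives). Of 5 lamin processing enzymes and 5 SMC5/6 partners, 0 were called in edgeR, limma-voom or DESeq2. With p unadjusted, edgeR had 1 enzyme lower and 0 partners in either direction. The 4 meiotic cohesin genes had too few counts to be tested. Smc1b and Rad21l were at 0 in every library, and 0 counts leave room for 0.302 to 0.379 CPM by library (3 counts, for counting error).

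Most of the listed mitotic genes outside the members rose with TLX, whereas 7.79% of all tested genes did. This list and the S phase list were also made with earlier results of these data known. Their shares are therefore no independent evidence, and no test of either list was made. Of 26 mitotic genes, 20 rose, 0 fell and 26 had a positive log2 fold change, with a median of 0.37 (edgeR had 0 lower with p unadjusted, and DESeq2 called 11 higher and 0 lower). Without TLX replicate 1 or 2 the number that rose was 10 and 11. Plk1, the kinase that phosphorylates condensin and cohesin in mitosis, was at 104 and 97.3 CPM in TLX, against 61.5 and 59.0 CPM in control (log2 fold change 0.74, adjusted p = 1.47e-06). Foxm1, a transcription factor of G2/M genes, had a log2 fold change of 0.51 (adjusted p = 3.48e-05). Cenpf, a kinetochore protein gene, and Ccnb1, which encodes cyclin B1, had 0.76 and 0.50 (adjusted p of 7.21e-05 and 0.000136). The mitotic list summed to 2248 and 2300 CPM in TLX, against 1711 and 1756 CPM in control. Of 20 S phase genes 8 rose and 0 fell, with a median of 0.21 (edgeR had 0 lower with p unadjusted, and DESeq2 called 7 higher and 0 lower), and they summed to 1968 and 1889 CPM in TLX, against 1653 and 1555 CPM in control. Rrm2, a ribonucleotide reductase subunit, rose by 0.63, Ccne1, which encodes cyclin E1, by 0.64, the replicative helicase subunit gene Mcm6 by 0.44 and the sliding clamp gene Pcna by 0.33 on the log2 scale (adjusted p of 1.01e-05, 0.000129, 0.000487 and 0.00409). Pcna was lost without TLX replicate 1 (adjusted p = 0.186; 0.00053 to 0.186 over the alternatives). The part of this shift in the members' changes was not tested. In bulk RNA, more dividing cells and more RNA of these genes per cell cannot be told apart.

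**Figure D5:**
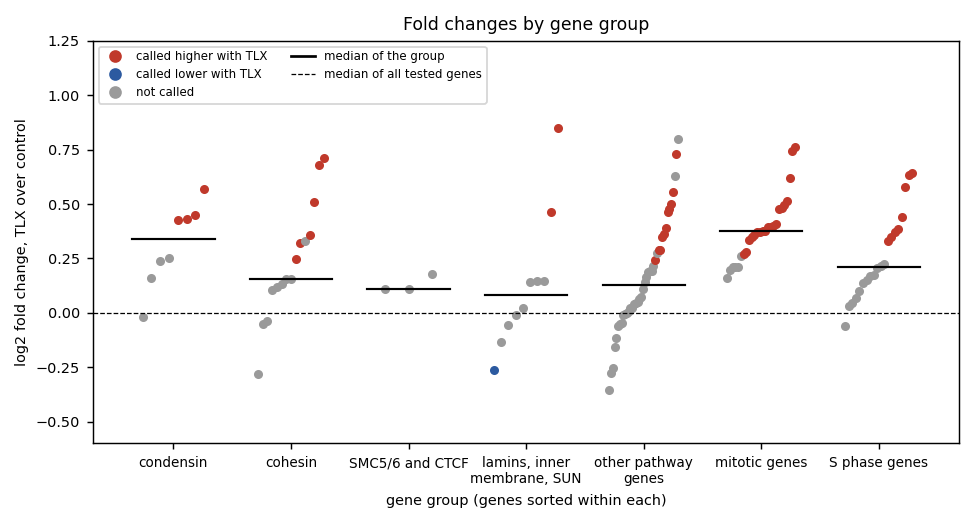
Log2 fold change of TLX over control for each tested gene, by group, with genes sorted within a group. Solid lines are group medians, the dashed line is the median of all tested genes, and colour marks the call. The condensin median lies at 0.34, the cohesin median at 0.16, the lamina median at 0.08 and the mitotic median at 0.37.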

How the data were processed

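Cells of 4 libraries were compared by RNA-seq. The submitters' processing notes name TopHat2 2.0.13 and mm9; the counting program, annotation, use of strand and treatment of reads with several matches are not known here. The authors deposited raw counts and a length for each feature, per the file headers. Of 56826 rows, 33353 carry cDNA clone names, hold 23.3% to 25.1% of all counts and can repeat reads of genes. Library sizes and tests did not use them. Rn45s took 12.2% to 16.7% of gene row counts.

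Libraries of 1 group differed by more than counting noise (median chi-square 0.718 for TLX and 1.07 for control, against 0.455). Each counted as a sample, although such a difference does not show that they came from separate cultures. Genes passing filterByExpr (minimum count 10) were tested by edgeR's quasi-likelihood method after TMM scaling, TLX against control, and p was adjusted by Benjamini-Hochberg over all 11024 tested genes. An SE is the log2 fold change over the root of F. CPM uses TMM-scaled sizes, RPKM plain gene row totals.

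Members and lists were chosen with earlier results of these data known. Named are all members, Nr2e1, called genes of other lists (at most the 4 of smallest p) and markers that were highest or at 0. Not every such marker is reported here. Kctd18, Sco2, Tymp and Sgo2b were added after the annotation and values were seen. Alternatives were other size factors or none, no filter, a filter at 10 CPM, limma-voom, DESeq2, a block by replicate number, all rows, no Rn45s or Lars2, and each library left out. Ranges over alternatives leave out the block. Software was R 4.3.3 with edgeR 4.0.16, DESeq2 1.42.0 and limma 3.58.1.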

Additional observations from a re-analysis of the deposited data

How the results depend on the processing

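Of the 13 called members, 6 passed under each of the 13 alternatives and 7 were lost under at least one, while 5 uncalled members passed under at least one. No called member changed sign. The number of members higher was 12, and it was 7 in DESeq2 and 6 to 14 when a library was left out; the number lower was 1, and it was 0 in DESeq2, 2 with the replicate block and 0 to 2 when a library was left out. Among the other pathway genes the number higher was 11, and it was 6 in DESeq2 and 5 to 13 when a library was left out; the number lower was 0, and it was 1 with the block and 0 to 2 when a library was left out. Over all tested genes 859 were higher and 997 lower; DESeq2 called 355 and 484, leaving out a library gave 388 to 993 and 585 to 1060, and the block gave 1495 higher and 1487 lower. Other settings kept these counts within 1.5 times.

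The libraries share only a number in their titles, and the numbers were not taken to pair them. The correlation of same-numbered deviations was 0.108 over 11024 genes with 2 pairs. TLX and control libraries of the same number were slightly closer (median chi-square 1.99 and 2.04) than those of different numbers (2.25 and 2.28). Whether the libraries are paired is therefore not settled. With the replicate block 14 members were higher and 2 lower. Smc4 and Ncapg2 then passed as higher (log2 fold change 0.24 and 0.25) and Cdca5 as lower (-0.29).

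Uncalled members near 0 changed sign when a library was left out. Log2 fold changes then ran from -0.12 to 0.086 for Ncaph2, -0.17 to 0.35 for Stag2, -0.056 to 0.35 for Nipbl, -0.15 to 0.069 for Wapal, -0.0085 to 0.24 for Pds5a, -0.15 to 0.052 for Lbr, -0.079 to 0.056 for Emd and -0.017 to 0.063 for Sun1. The cause was not tested. No scaling changed the sign of a member. Esco2 and Nrm have no value under the filter at 10 CPM. A member that did not pass is not shown to be unchanged, and Esco2 rests on 33 to 60 counts a library.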
